A study of Mus musculus with 18 samples.

Results

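The genes described here were 10 genes of the NRF2 and glutathione system, Nfe2l2, Keap1, Gclc, Gclm, Gsr, Txnrd1, Srxn1, Nqo1, Hmox1 and G6pdx, taken by symbol from a table of 21859 genes, together with the upstream antisense transcripts listed under the same symbols. Every one of the 10 genes had a row in the gene table, and 8 of them had a row among the 32253 promoter upstream transcripts (PROMPTs), the short-lived RNAs transcribed away from a promoter on the opposite strand.

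The study asked what the histone chaperone FACT does for transcription in mouse embryonic stem (ES) cells, by depleting its subunit SPT16. Nascent RNA was measured by TT-seq, in which RNA made during a brief pulse of 4-thiouridine (4sU) is captured and sequenced. There were 18 libraries in 6 groups of 3, labelled Untagged_EtOH, Untagged_3-IAA, SPT16_AID_V5_Clone1_EtOH, SPT16_AID_V5_Clone1_3-IAA, SPT16_AID_V5_Clone2_EtOH and SPT16_AID_V5_Clone2_3-IAA. Cells of every group were of the E14 line with the plant auxin receptor osTIR1 inserted in the genome. The methods give the line as male and the insertion at Rosa26. In the tagged lines, of which each was 1 clone, both copies of the gene for SPT16 carried a minimal auxin-inducible degron and V5 epitopes. Cells were grown without feeders in serum with LIF, a GSK3 inhibitor, a MEK inhibitor and the reducing agent 2-mercaptoethanol, and were treated for 24 h with 3-indoleacetic acid (3-IAA), the auxin that triggers degradation, or with 0.1% ethanol, before 5 min of 4sU. The labels gave the dose of 3-IAA as 500 nM, whereas the methods gave the same figure in micromolar, and the labels and the methods also differed in the unit of the 4sU dose.

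NRF2, the product of Nfe2l2, is a transcription factor that is made continuously and degraded continuously, because KEAP1 holds it for ubiquitination by a CUL3 ligase. Oxidants and electrophiles modify cysteines of KEAP1, after which NRF2 accumulates, pairs with a small MAF protein and binds antioxidant response elements near genes for glutathione synthesis, thiol reduction, quinone and heme metabolism and NADPH supply. Glutathione is the main small thiol of the cell, and the enzymes that keep it and thioredoxin reduced draw their electrons from NADPH.

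The value used for each gene was the authors' mean, over all libraries together, of counts divided by a size factor for each library, named the normalised read count here. It joins control and SPT16-depleted libraries in 1 number, so it shows how strongly a gene was transcribed over the whole experiment and cannot show whether depletion changed it. No value per library was used here, so no value below has a standard deviation and no difference between genes or groups was tested. The order of genes is a description of these means. Because every normalised count is a sum of whole reads, the lowest values showed what 1 read was worth in each of 18 libraries, from 0.0216 to 0.115 in the gene table, a 5.34-fold range. On this basis the least covered of the 10 genes, G6pdx, rested on at least 14998 reads in all, and Nfe2l2 on at least 133044.

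In these pooled means ES cell markers were strongly transcribed and fibroblast markers weakly. A mean over all libraries does not show the state of the cells in any single group. All 8 ES cell markers, Dppa5a, Sox2, Nanog, Zfp42, Pou5f1, Klf4, Tfcp2l1 and Esrrb, had a normalised read count of at least 100. Of all genes with reads, 62.2% reached that limit. The levels of the 8 markers per kb of gene span ran from 401 for Esrrb to 5779 for Dppa5a, with a median of 1772. None of the 5 fibroblast markers reached 100. Thy1 stood at 25.7 normalised reads, Col1a1 at 25.3, Col1a2 at 9.17, Col3a1 at 2.03 and Postn at 0.118.

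Promoter sequence is shown first, since NRF2 binds antioxidant response elements. RefSeq windows of GRCm38.p6, from 250 bases before to 50 bases after a start, were given for 7 of the 10 genes, in 9 windows of which Txnrd1 had 3, and not for Hmox1, Gclc and Gsr. The element was searched as TGACNNNGC on both strands and was found in the windows of 5 genes, Nfe2l2, Srxn1, Gclm, Txnrd1 and G6pdx. Over all 27025 genes with windows, 14% had a match, and over all 32851 windows 12.4% did. The matches follow 5′ to 3′ on the strand that carries the motif, with the motif in capitals and 10 bases on either side.
Nfe2l2: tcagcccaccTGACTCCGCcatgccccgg
Gclm: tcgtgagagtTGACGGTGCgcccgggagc
Srxn1: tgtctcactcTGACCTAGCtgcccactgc
Txnrd1: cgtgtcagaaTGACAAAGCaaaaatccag
G6pdx: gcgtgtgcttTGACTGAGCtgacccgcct

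The Nfe2l2 match, at chr2:75704885-75704913 on the minus strand with its flanks, began 240 bases before the RefSeq start and was the only one of these 5 that lay on the gene's own strand. The Gclm match, at chr3:122245413-122245441 on the minus strand, lay 134 bases before the start. The Txnrd1 match, at chr10:82859104-82859132 on the minus strand, lay 92 bases before the start at 82859206, and the window of the outermost Txnrd1 start at 82833951 held none. The G6pdx match, at chrX:74428919-74428947 on the plus strand, lay 57 bases before the RefSeq start at 74428880. The gene span used for levels starts farther upstream, at 74429194, so the G6pdx match lies inside that span. The Srxn1 match, at chr2:152105542-152105570 on the minus strand, began 29 bases into the transcript, so that 4 genes kept a match when only the bases before the start were searched, beside 11.5% of all genes. These distances run to the base of the motif farthest upstream.

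Srxn1 and Nqo1 each held a motif that no other of these windows held. Srxn1 was the only one of the 7 genes with the AP-1 motif TGANTCA, which 8.97% of all genes had in their windows, and it had it at 102 and at 45 bases before the start. Here the stretch from 130 to 21 bases before the start, chr2:152105394-152105503 on the plus strand, is shown with both AP-1 motifs in capitals. The second runs on into TGAGTCAGC, a match to the looser element TGANNNNGC, and a second looser match, read on the opposite strand, is also in capitals.
Srxn1: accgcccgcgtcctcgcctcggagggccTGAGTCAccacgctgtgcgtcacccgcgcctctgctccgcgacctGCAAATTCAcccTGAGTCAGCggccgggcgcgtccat

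Nqo1 was the only one of the 7 with the TATA box TATAAA, which 15.7% of all genes had, at 29 bases before its start. The stretch from 100 to 11 bases before the start, chr8:107403216-107403305 on the minus strand, is shown with that box and with 2 GC boxes, GGGCGG on either strand, in capitals.
Nqo1: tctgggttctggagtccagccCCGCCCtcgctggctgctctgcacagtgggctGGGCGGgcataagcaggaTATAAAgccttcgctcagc

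Neither form of the element was in the Nqo1 window, which says only that these letters were not in these bases. The looser element was in the windows of 6 of the 7 genes, all but Nqo1, against 45% of all genes. A GC box was in those of all 7 genes against 38.2%, and CCAAT in 2, Gclm and Txnrd1, against 41.1%. The 9 windows ranged from 48% to 79.7% in GC content with a median of 60%, where the median of all windows was 52.7%. Their CpG content over that foreseen from base composition ran from 0.154 at the outermost Txnrd1 start to 1.01 at Gclm, with a median of 0.668 against 0.384 over all windows. No binding data were used here, so a match is only a stretch of letters.

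All 10 genes were transcribed above the median gene. In normalised reads per kb of gene span, from the first to the last annotated base with introns included, they ran from 87.7 for G6pdx to 526 for Nfe2l2 and had a median of 205. The 20140 genes that had reads and a gene model had a median of 21.7, with quartiles at 0.669 and 117. Of the 10 genes, 9 lay above the upper quartile, and G6pdx stood at the 68.9th percentile. Introns were counted as part of each gene, which was read from the files: all 89 protein-coding genes lying in introns of a same-strand gene with a normalised read count of at least 1000 were listed at 0, as when reads shared by 2 features are dropped. One of them, Eid3, lies inside Txnrd1. Dividing the same counts by the length of merged exons put the 10 genes between the 69.2nd and 98.4th percentiles, in a different order. No count of exon reads alone was used. Compared with span, that scale raises a gene more the larger the share of its introns.

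**Figure D1:**
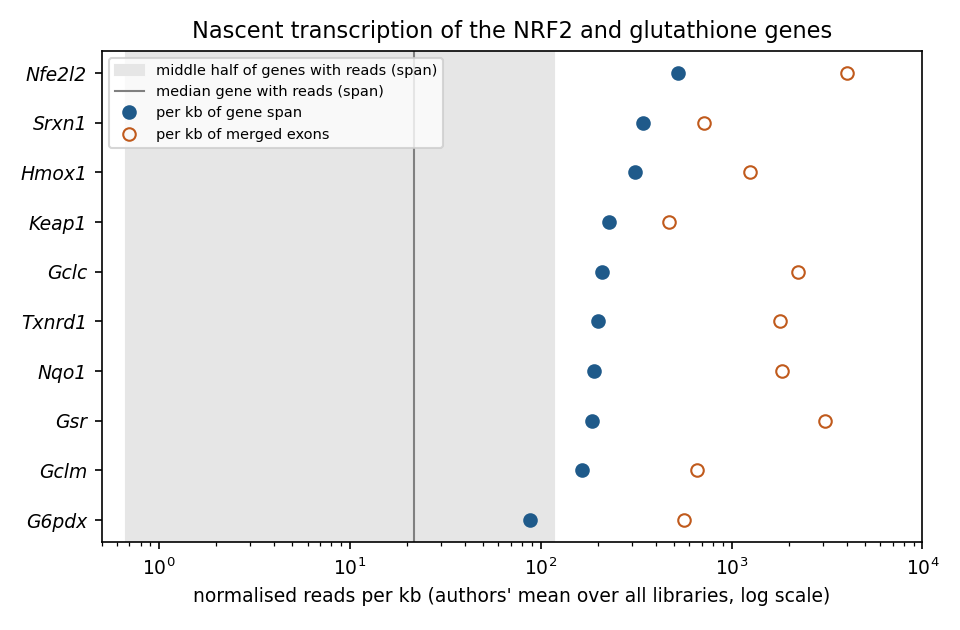
Normalised reads per kb on a log axis for the 10 genes, ordered by level per kb of gene span (filled points), with the level per kb of merged exons (open points). The grey band spans the quartiles of all genes with reads, 0.669 to 117 per kb of span, and the line their median of 21.7. On the span scale 9 genes lie above the band and G6pdx, at 87.7, lies within it.

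The regulator was the most transcribed of the 10. Nfe2l2 (ENSMUSG00000015839, chr2:75675513-75704641, minus strand, GRCm38) had a normalised read count of 15332, or 526 per kb of span, at the 97.4th percentile. It ranked first on either length scale, with 4039 per kb of merged exons. Keap1 (ENSMUSG00000003308, chr9:21229730-21239361, minus strand), whose product is the sensor that delivers NRF2 to the ligase, had 2199 normalised reads and 228 per kb of span. Nfe2l2 stood 2.31-fold above Keap1 per kb of span and 8.62-fold above it per kb of merged exons. Keap1 was the fourth of the 10 by span and last by exons. Its introns make up 51.3% of its span, the smallest share among the 10 genes, whereas those of Nfe2l2 make up 87.0%.

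The genes of glutathione synthesis and recycling lay close together per kb of span, but not per kb of merged exons. Gclc (ENSMUSG00000032350, chr9:77754535-77794485, plus strand) encodes the catalytic subunit of glutamate-cysteine ligase, which makes the first bond of glutathione, and had 8379 normalised reads, or 209.7 per kb of span. Gclm (ENSMUSG00000028124, chr3:122245557-122270732, plus strand), for the modifier subunit that raises the activity of the catalytic subunit, had 4164, or 165 per kb. The 2 subunit genes thus differed 1.27-fold per kb of span, and 3.36-fold per kb of merged exons, with Gclc higher on either scale. Gsr (ENSMUSG00000031584, chr8:33652523-33698163, plus strand), for the reductase that returns oxidised glutathione to its thiol form, had 8467 normalised reads, or 186 per kb. By span Gsr was eighth, between Nqo1 and Gclm, and by merged exons it was second after Nfe2l2, at 3074 per kb. Introns make up 94.0% of the span of Gsr, the largest share among the 10.

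Of the genes of thiol repair, the short one stood higher. Srxn1 (ENSMUSG00000032802, chr2:152105516-152111376, plus strand) encodes sulfiredoxin, which restores overoxidised peroxiredoxins, and in 5.861 kb with 2 merged exons it had 2013 normalised reads, or 343 per kb, second only to Nfe2l2. Txnrd1 (ENSMUSG00000020250, chr10:82833951-82897712, plus strand), for the cytosolic selenoenzyme that reduces thioredoxin, had 12757 normalised reads over 63.762 kb, or 200.1 per kb. Txnrd1 therefore had the second highest count and the sixth level per kb of span. By merged exons the order turned, with 1800 per kb for Txnrd1 and 714 for Srxn1.

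Among the genes of quinone, heme and NADPH metabolism the order was Hmox1, Nqo1 and G6pdx by span. Hmox1 (ENSMUSG00000005413, chr8:75093621-75100589, plus strand), for the inducible heme oxygenase, had 2175 normalised reads and 312 per kb, at the 93.6th percentile. Nqo1 (ENSMUSG00000003849, chr8:107388225-107403206, minus strand), for the quinone reductase often used to read out NRF2, had 2849 and 190 per kb. G6pdx (ENSMUSG00000031400, chrX:74409483-74429194, minus strand) encodes glucose-6-phosphate dehydrogenase, the entry enzyme of the oxidative pentose phosphate pathway, and had 1728 and 87.7 per kb, the lowest count and the lowest level per kb of span among the 10. Hmox1 stood 3.56-fold and the next gene up, Gclm, 1.89-fold above G6pdx per kb of span. G6pdx was the only one of the 10 on the X chromosome, in a line that the methods give as male. Whether this bears on its level was not tested. By merged exons Nqo1, at 1835 per kb, stood above Hmox1, at 1242, and G6pdx at 561 stood above Keap1 at 469.

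The middle of the order was tight. Gclc, Txnrd1, Nqo1 and Gsr lay between 186 and 209.7 per kb of span, a 1.13-fold range, and neighbours such as Nqo1 and Gsr differed 1.03-fold. Without a spread between libraries, no neighbours in the order can be told apart by a test. Gene models bear on these levels, since a span holds everything from the outermost start. Nqo1 has a single annotated transcript, while Txnrd1 has 8 with 8 different starts.

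**Figure D2:**
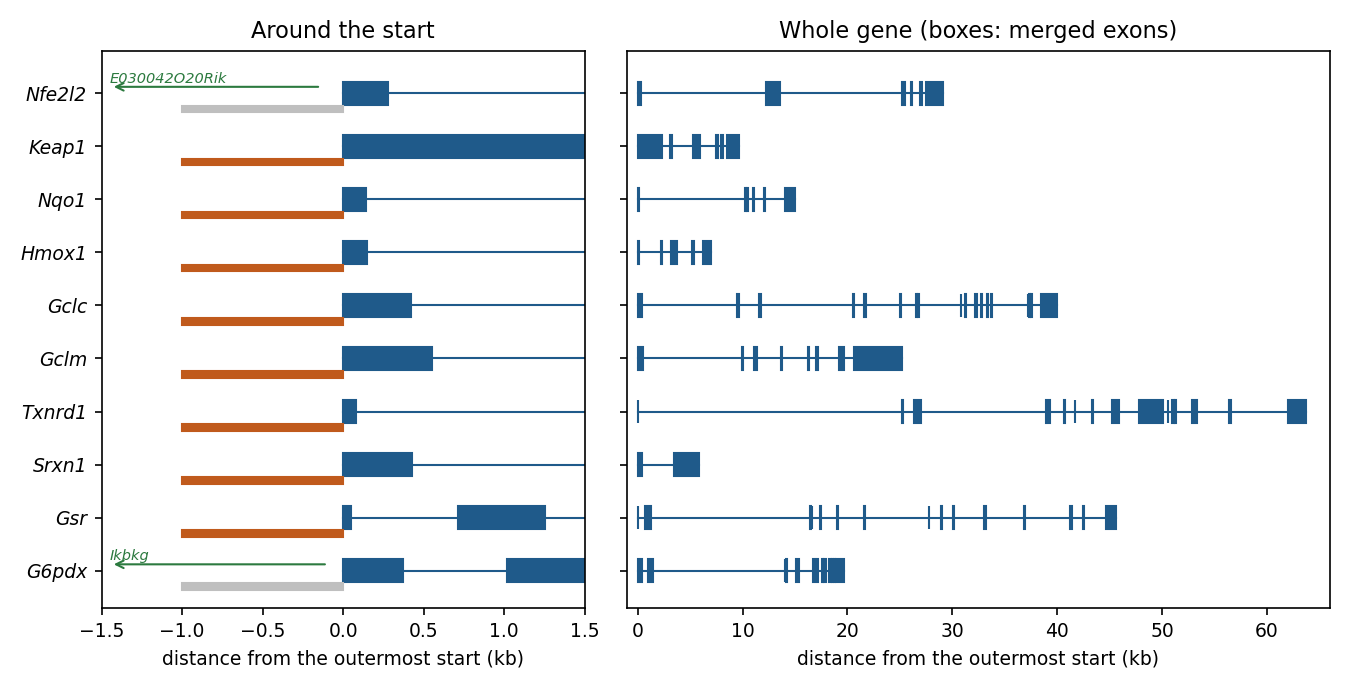
Gene models of the 10 genes by distance in kb from the outermost annotated start, with merged exons as boxes and introns as lines, around the start on the left and whole on the right. Bars below the line on the left are the 1 kb upstream windows, orange where a PROMPT is listed and grey for Nfe2l2 and G6pdx, where none is, and green arrows are genes that start within that window on the other strand. Srxn1, at 5.861 kb, is the shortest gene and Txnrd1, at 63.762 kb, the longest.

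Among the 8 genes with a PROMPT, the PROMPT count was spread more widely than the level of the gene. Gene levels of the 8 ran from 165 to 343 per kb of span and from 469 to 3074 per kb of merged exons. How widely the pairs of other genes spread was not measured. Over the 8 genes with a PROMPT, the normalised read count of the PROMPT ran from 0.835 for Txnrd1 to 53.8 for Nqo1, a 64.5-fold range. Nqo1 led with 53.8, followed by Gsr at 32.7, Hmox1 at 29.9, Gclm at 18.4 and Srxn1 at 17.1. Keap1 at 3.94, Gclc at 2.81 and Txnrd1 at 0.835 formed the lower end.

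These counts rested on few reads at the low end. For Txnrd1 the worth of a read in the PROMPT table, 0.0266 to 0.129, allowed between 7 and 31 reads in the 18 libraries together, and for Nqo1 between 418 and 2020. The bounds were 22 to 105 reads for Gclc and 31 to 147 for Keap1. They limit the number of reads behind a mean and are no error of the mean, so the order of the PROMPTs, like that of the genes, is a description.

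By count, most of these PROMPTs were high beside those of other transcribed genes, a set not matched to them in gene level. Relative to gene level they were spread widely, as given below. Of the 8, 7 had a normalised read count of at least 1 (87.5%) and 5 at least 10 (62.5%), where of the PROMPTs of 10131 genes with a normalised read count of at least 100, 62.9% reached 1 and 24.6% reached 10. The median of the 8 was 17.7 and that of the 10131 was 2.31. Among these pairs the PROMPT of Nqo1 stood at the 95.4th percentile, that of Gsr at the 91.2nd and that of Hmox1 at the 90.3rd. Those of Keap1 and Gclc stood at the 59.5th and 53.5th, and that of Txnrd1 at the 33.8th. The wider pathway described below had 75 genes with a PROMPT, of which 66.7% reached 1 and 40% reached 10, with a median of 6.25.

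The order of the PROMPTs was not that of the genes. Per kb, the PROMPT of Nqo1 was 28.3% of the level of its gene per kb of span, that of Gsr 17.6%, that of Gclm 11.1% and that of Hmox1 9.59%. For Srxn1, the second gene by level per kb, it was 4.97%. For Keap1 it was 1.73%, for Gclc 1.34% and for Txnrd1 0.417%. Against the level per kb of merged exons the upper 5 were ordered differently, with Nqo1 at 2.93%, Gclm at 2.78%, Hmox1 at 2.41%, Srxn1 at 2.39% and Gsr at 1.06%, and the lower 3 kept their order at 0.841% for Keap1, 0.126% for Gclc and 0.0464% for Txnrd1. Per kb of span, the median of the 8 was 7.28% and that of the 10131 pairs 3.60%. Since the 2 tables carry size factors of their own, these percentages serve to compare genes and are not absolute shares. Nqo1 and Txnrd1 had similar levels, 190 and 200.1 per kb of span, and stood at the 87.8th and 16.3rd percentiles of the ratio by span. Gsr stood at the 81.6th, Gclm at the 73.5th, Hmox1 at the 70.6th and Srxn1 at the 56.7th. Keap1 and Gclc, at the 36.8th and 32.6th, lay like Txnrd1 below the median pair. The 2 subunits of glutamate-cysteine ligase were also apart in this ratio, with a PROMPT count 6.55-fold higher at Gclm than at Gclc. Gclc was the more transcribed gene.

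**Figure D3:**
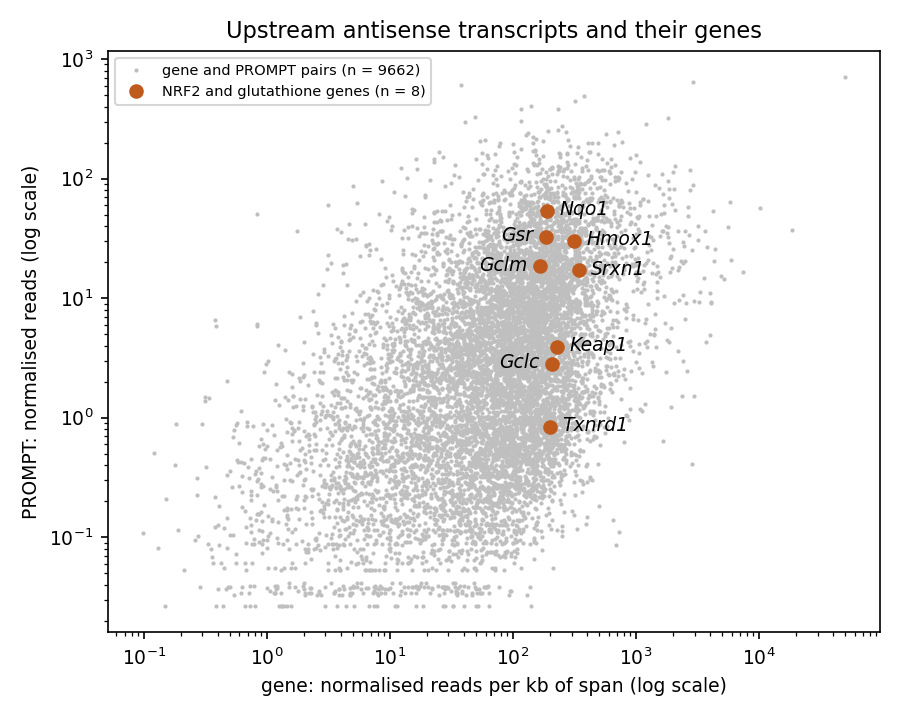
Normalised read count of the PROMPT against normalised reads per kb of gene span, both on log axes, for 9662 pairs with a gene at 100 or more and a PROMPT above 0 (grey) and for 8 NRF2 and glutathione genes (orange). The 8 genes lie in a narrow range of gene level, 165 to 343 per kb, and spread over 0.835 to 53.8 in the PROMPT.

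The surroundings of the starts differed for the genes without a PROMPT. By the notes deposited with the tables, PROMPTs were taken within 1 kb upstream of a start, on the other strand, and not within 1 kb of another coding transcript. The noncoding gene E030042O20Rik starts 129 bases upstream of the outermost start of Nfe2l2 on the opposite strand. Ikbkg, a coding gene for a regulatory subunit of the IκB kinase complex, starts 87 bases upstream of the outermost start of G6pdx. Ikbkg itself had 2134 normalised reads, or 35.2 per kb of span. The rule names coding transcripts only, whereas E030042O20Rik is noncoding. Why Nfe2l2 and G6pdx had no PROMPT row was not tested. For the other 8 genes the nearest start on the opposite strand lay 8352 bases or farther upstream of the outermost start, the nearest being at Keap1 and the farthest, at 64046 bases, at Txnrd1.

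The PROMPT rows carried no coordinates, so for a gene with several starts the window is not known here. This matters most for Txnrd1, whose RefSeq starts lie at 82833951, 82859206 and 82860341, of which the one at 82859206 had the antioxidant response element and a CpG ratio of 0.963. Small or nested genes that start inside Nfe2l2, Txnrd1 and Gsr on the same strand had PROMPT rows of their own. These were Gm24996 in Nfe2l2 at 4.15 normalised reads, Eid3 in Txnrd1 at 2.02 and Gm24727 in Gsr at 0.849. By their annotated starts the 1 kb windows of these rows would lie inside the coding genes, antisense to them. The rule given above, read without regard to strand, would leave such windows out. Where these rows were counted is therefore not known here.

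Genes of the wider pathway numbered 85, in 8 lists by role. All 85 had a normalised read count of at least 1, 83 of at least 10 and 72 (84.7%) of at least 100. Of the 20140 genes with reads, 17664 reached 1, 15428 reached 10 and 12526 (62.2%) reached 100. Their median level was 92.9 per kb of span, against 205 for the 10 genes and 21.7 for all genes with reads. Set among the 95 genes of both, Nfe2l2 ranked 12th and G6pdx 53rd. By list, medians ran from 43.1 per kb for the 32 genes that use glutathione to 262 for the 9 genes listed under NADPH supply. That list also held pentose phosphate enzymes that do not themselves make NADPH, such as Rpe.

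Partners and competitors of NRF2 had a median of 214 per kb over 11 genes, beside 205 for the 10 genes, all with at least 100 normalised reads. Cul3, the scaffold of the ligase that KEAP1 serves, stood at 244 per kb and Gsk3b, a kinase that marks NRF2 for another ligase and a target of the inhibitor in the medium, at 179. By span the list was led by Sqstm1 at 703 and Nfe2l1, a relative of NRF2, at 696, both above Nfe2l2 at 526. The lowest was Nfe2l3, another relative, with 314 normalised reads. Nfe2l2 stood above Cul3 and Cul3 above Keap1 on either length scale, with 4039, 3784 and 469 per kb of merged exons.

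The list named glutathione supply, which also held genes of glutathione breakdown such as Chac1, had a median of 114 per kb over 6 genes. Slc3a2, the heavy chain of amino acid transporters, stood at 642 and Chac1, which degrades glutathione, at 443 per kb. Slc7a11, the light chain of the cystine transporter, had 172 normalised reads. It stood at 0.313 per kb of span and 12.4 per kb of merged exons, the lowest of the list on either scale. The annotated length weighs on these values, since Chac2, with a similar count of 175, stood at 18.2 per kb of span and 133 per kb of merged exons. By span Gclc and Gclm, at 209.7 and 165, lay below Chac1 and above Slc7a11. By merged exons Gclc, at 2225, was above Chac1, at 853, and Gclm, at 662, below it.

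The largest list, of glutathione use, was the most uneven. Of its 32 genes, 21 reached 100 normalised reads. By span Gpx1 led the list at 1520 per kb. Gsta4, a glutathione transferase that acts on lipid aldehydes, stood at 333 per kb and Glrx3, a glutaredoxin, at 350.04, while Gsta1 stood at 0.0967 with 1.16 normalised reads. Transferases have near-identical relatives, and as only uniquely aligned reads were kept, their levels are uncertain. Gsr, which returns oxidised glutathione to the pool, stood at 186, below Gsta4 and Glrx3 by span, and at 3074 per kb of merged exons it was above Glrx3, at 2162, and below Gsta4, at 6982.

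In the list of thioredoxins and peroxiredoxins, which also held the thioredoxin-binding Txnip and the reductases Txnrd2 and Txnrd3, the median over 11 genes was 179 per kb. By span Txnip led the list at 2878 per kb. Txn1, the cytosolic thioredoxin, stood at 559 and Prdx1, a peroxiredoxin repaired by sulfiredoxin, at 1231, with Prdx5 lowest in count at 459 normalised reads and 135 per kb. Txnrd1 at 200.1 was below Txn1, and Srxn1 at 343 below Prdx1, and both orders held per kb of merged exons.

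In the list of NADPH supply all 9 genes reached 100 normalised reads. Rpe, a pentose phosphate epimerase, stood at 538 per kb and Idh2, the mitochondrial NADP-linked isocitrate dehydrogenase, at 297, with Pgls, the lactonase that acts directly after G6pdx, lowest in count at 686 normalised reads and 76.9 per kb. G6pdx at 87.7 lay below the list's median of 262 per kb of span. It stood just above Pgls on that scale and farther above it per kb of merged exons, at 561 against 182.

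In heme and iron handling, with a median of 76.3 per kb over 7 genes, Ftl1, the ferritin light chain, stood at 3148 and Hmox2, the constitutive heme oxygenase, at 76.3, below the inducible Hmox1 at 312, while the iron exporter Slc40a1 stood at 2.78. Per kb of merged exons Hmox2, at 1390, was above Hmox1, at 1242. In detoxification and export, with a median of 78.6 over 5 genes, the exporter Abcc4 stood at 120 and the epoxide hydrolase Ephx1 at 94.2, and Cbr1, a carbonyl reductase, at 78.6, all below Nqo1 at 190. Per kb of merged exons Abcc4, at 4215, and Ephx1, at 2160, were above Nqo1, at 1835. Among the enzymes for superoxide and hydrogen peroxide, Sod1 stood at 955 and Cat, catalase, at 111, and the extracellular Sod3 had 1.38 normalised reads and 0.180 per kb.

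**Figure D4:**
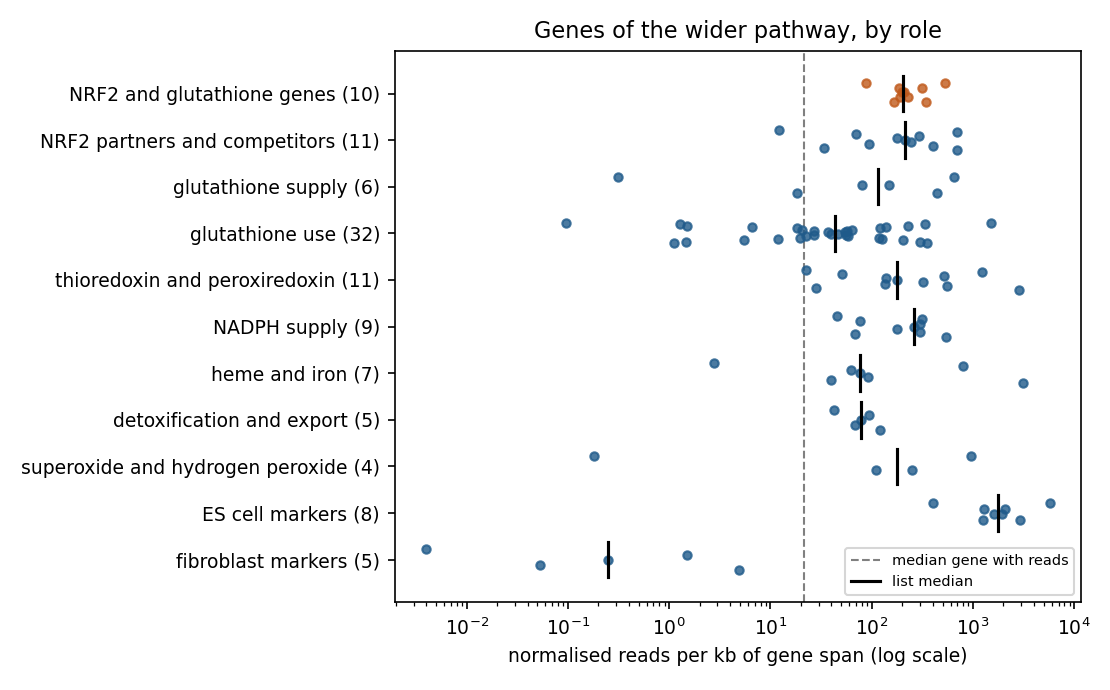
Normalised reads per kb of gene span on a log axis for each gene of the lists, with the number of genes in brackets, the 10 NRF2 and glutathione genes in orange and black bars at list medians. The dashed line is the median gene with reads, at 21.7, and the orange points lie between 87.7 and 526, all to its right.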

How the data were processed

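TT-seq reads of 18 libraries were, per the methods, trimmed with Trim Galore, aligned uniquely to mm10 with STAR and counted by strand with featureCounts on Gencode vM25; the submitters' processing notes name HTSeq instead, and versions are not given in the sources used here. The authors deposited 1 table for each transcript class. The baseMean signal, the only column used, is the authors' mean of counts divided by DESeq2 size factors over all libraries. The other 4 value columns hold the authors' own comparison (fold change, standard error and p-values) and were not used, so groups were not compared. Tables of eRNAs and other noncoding RNAs were not used.

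Gene span and merged exons came from Gencode vM21 on GRCm38. Scaling by exons had been planned as the main scale, and span was chosen after the nested genes at 0 were seen, though over 12526 genes whose baseMean reached 100 the count rose with span to the power 0.376 and with exon length to the power 0.796. Percentiles were taken over genes with reads. The worth of a read was read from baseMeans up to 0.2 that were at least 0.06 times as frequent as the most frequent, a search that missed a library of the PROMPT table on simulated data, and gave bounds only, since too many reads lay behind each value for the planned split into reads per library. Named genes were the 10 genes, all markers and, of each list, the 2 highest per kb of merged exons and the lowest baseMean. Sqstm1, Nfe2l1, Gpx1, Txnip and Chac2 were added after their levels per kb of span were seen. The genes and lists were chosen with earlier results of these data known. Values were computed in Python 3.11.15 with pandas 2.3.3, scipy 1.17.1 and numpy 2.4.6, and drawn with matplotlib 3.10.9. Alternatives were the exon scale, limits on low values, a looser or upstream-only motif and, chosen after seeing the data, other shares for the worth of a read.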

Additional observations from a re-analysis of the deposited data

How the results depend on the processing

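The median percentile of the 10 genes was 87.3 per kb of gene span, 89.7 per kb of merged exons, and 85.5 or 83.4 among genes with a normalised read count of at least 1 or 10. All 10 genes stayed above the median gene under these alternatives, but per kb of merged exons 8 rather than 9 lay above the upper quartile. On that scale Keap1 moved from the 89.3rd to the 69.2nd percentile, Srxn1 from the 94.6th to the 77.1st and Gsr from the 85.2nd to the 97.1st. The median PROMPT level over gene level, 7.28% per kb of span, was 1.73% per kb of merged exons and 0.414% of the unscaled gene count, by construction of the scales. Of the 8 PROMPTs, 8 reached 0.1 and 5 reached 10. With a share of 0.1 in place of 0.06, 17 rather than 18 libraries were found in the gene table, and 18 with 0.04. No paired analysis was possible because each value used here is a mean over all libraries and carries no replicate number, and for the same reason no replicate could be left out. Depth limits the PROMPTs of Keap1, Gclc and Txnrd1 most.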

Other observations

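In the wider pathway the highest PROMPT count belonged to Maff, a small MAF partner of NRF2, at 130 normalised reads, where the gene itself had 420, or 33.7 per kb of span. Gsta3, a glutathione transferase, followed with a PROMPT of 109 and a gene level of 58.6 per kb. Both were singled out for these values, and no spread between libraries was at hand to test either.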
